A study of Zea mays with 217 samples.

Results

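The genes described here are 150 of the 20067 target genes in the leaf network, chosen by the listings of 4 bHLH TFs. A gene qualified when bHLH43, bHLH162, bHLH163 and bHLH172 all listed it as a target, which held for 1276 genes once the profiled TF genes were set aside. Of these, the 150 listed by the fewest of the other 100 TFs were kept, and ties were ordered by the lowest product of the 4 p-values. The other 1126 genes listed by all 4 serve as the set to compare with, together with all target genes. The p-values of the 4 TFs and the number of other TFs chose the members, so every value below is a description of them and none is a test.

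The series holds 217 ChIP-seq libraries of 104 TFs from maize leaf, inbred B73, with 2 libraries for each of the 4 TFs. Leaves of seedlings of 1 to 2 weeks by the labels (9 days by the study's methods) gave protoplasts, leaf cells freed of their walls, mostly of the mesophyll. They took up plasmids that expressed a TF fused to an Avi tag together with a biotin ligase, and the biotin-tagged TF was recovered on streptavidin beads. All 104 groups share this background and differ only in the TF. The TF therefore came from a plasmid and not from its own gene, and other leaf cell types were not profiled. The coding sequence of bHLH43 was synthesised, those of bHLH162 and bHLH163 were amplified from B73 RNA, and that of bHLH172 came from a cDNA collection.

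The value for each TF and gene is the p-value of TIP (target identification from profiles), which weighs binding around a gene start by the average profile of that TF. Only pairs with a p under 0.05 are listed, 272627 in all, and the libraries of a TF are pooled, so no value carries a replicate error and the depth behind it is not known from the table. Because a p is relative to the profile of its own TF, TFs were also compared by percent rank, the place of a gene in the list of a TF divided by the length of that list, where a low value means a low p.

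Basic helix-loop-helix (bHLH) TFs bind DNA as dimers, and the family recognises the E-box CANNTG, of which the G-box CACGTG is the best known form in plants. Some members respond to light. Phytochrome interacting factors, known best from Arabidopsis, are bHLH TFs that phytochrome photoreceptors bind and destabilise in light, and the reference annotation gives PIF5 as a synonym for the gene of bHLH43 and PIF4 for that of bHLH163. The same annotation, NAM-5.0, places the older identifiers of bHLH162 and bHLH172 under 1 gene, while the network treats them as separate TFs. Whether these are near-identical copies was not tested.

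The 4 TFs listed similar numbers of genes. bHLH43 listed 3135 (15.6% of all target genes), bHLH162 listed 3053 (15.2%), bHLH163 listed 3157 (15.7%) and bHLH172 listed 3019 (15.0%). Without TF genes, the 1276 genes listed by all 4 were 6.39% of the targets, and the members were 11.8% of those. Only 1 of the 4 genes of these TFs was listed by any of the 4, that of bHLH172, by bHLH172 itself with a p of 0.00214. The study removed the peaks of each TF at its own gene, since reads from the plasmid could map there. Listings of a TF's own gene were thus limited by the processing. Whether plasmid reads contribute to the listing by bHLH172 was not tested.

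The number of other TFs at the members ran from 0 to 20 with a median of 14 and quartiles of 9 and 17. For the other 1126 genes the median was 58 and the range 20 to 95. Only 18 members had at most 5 other TFs and 46 had at most 10, so most members were listed by many TFs beside the 4, and the list is a relative one. At its end lay 13 genes with 20 other TFs each, of which 5 were kept by their product of p. The 3 last members were Zm00001d033786, Zm00001d018107 and Zm00001d014612, the last with a product of 9.44e-10. The 3 first genes outside were Zm00001d016895, Zm00001d024403 and Zm00001d039324, the first with a product of 2.10e-09. No gap separates the members from the genes outside.

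**Figure D1:**
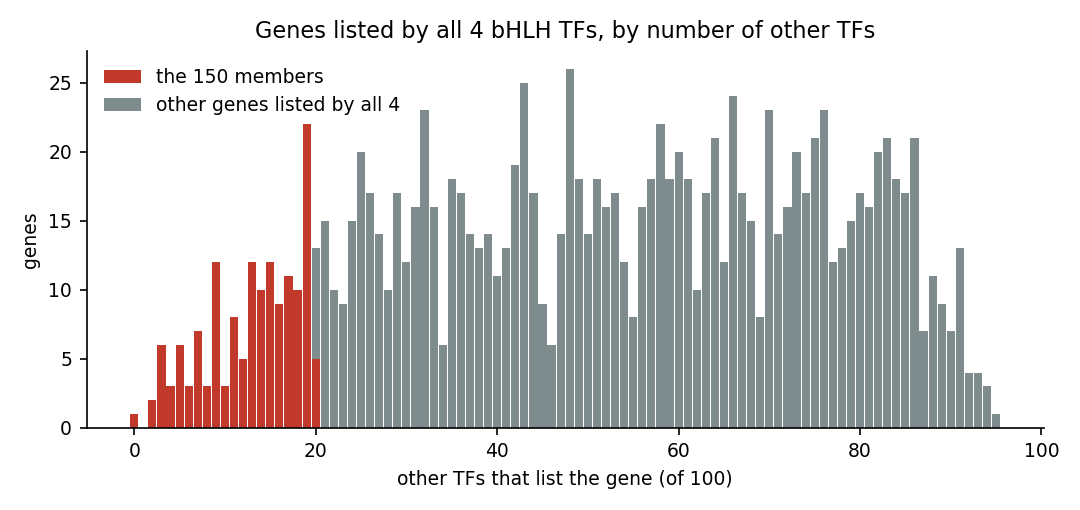
Number of genes (y axis) by the number of other TFs, of 100, that list them (x axis), for the 1276 genes listed by all 4 bHLH TFs. Members (red) end at 20 other TFs, where 5 of 13 genes were kept, and the other genes (grey) reach 95.

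Having few other TFs did not go together with a low p for the 4. At the members the median p was 0.0160 for bHLH43, against 0.00216 at the other genes listed by all 4 and 0.0123 over all its targets. For bHLH162 it was 0.00530 at the members, 0.00249 at the other genes and 0.0102 over its targets. For bHLH163 it was 0.0149 at the members, 0.00410 at the other genes and 0.0132 over its targets, and for bHLH172 it was 0.00256 at the members, 9.31e-04 at the other genes and 0.00658 over its targets. The members thus lay deeper in each list than the other genes, with median percent ranks of 57.1 against 24.4 for bHLH43, 38.4 against 28.3 for bHLH162, 53.3 against 29.2 for bHLH163 and 37.7 against 28.9 for bHLH172. Within bHLH43 and bHLH163 they were past the middle of the list.

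bHLH172 had a p of 0.001 or less at 56 members (37.3%), against 50.5% of the other genes listed by all 4 and 4.41% of all target genes. bHLH162 had one at 40 members (26.7%), against 37.4% of the other genes and 3.01% of all targets. For bHLH43 this held at 17 members (11.3%), against 39.6% of the other genes and 2.87% of all targets, and for bHLH163 at 16 members (10.7%), against 29.7% and 2.35%. The gap to the other genes was thus wider for bHLH43 and bHLH163. None of the 4 reached this level at 68 members (45.3%, against 28.8% of the other genes). At 45 members 1 did, at 28 members 2, at 8 members 3 and at 1 member all 4 (0.667%). Of the other genes, 141 (12.5%) had such a p for all 4, and over all target genes, TF genes kept, the share was 0.733%. Within the first 25% of all 4 lists were 3 members, and 12 were past 50% in all 4. These 2 counts were not made for the other genes, so they describe the members only.

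The member with a p of at most 0.001 for all 4 was Zm00001d038469. Its p was 3.88e-05 for bHLH43, 1.72e-06 for bHLH162, 8.07e-05 for bHLH163 and 1.27e-10 for bHLH172, which put it within the first 5.45% of each list. With 19 other TFs it stood near the end of the order by number of TFs. The p of bHLH136 there was 1.98e-09, a percent rank of 0.576, so this gene was also among the leading targets of a TF outside the rule.

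At several of the next members by product of p, bHLH162 and bHLH172 gave the low values. Zm00001d038223 had 6.69e-07 and 6.40e-08 for these, against 7.99e-04 for bHLH43 and 0.00273 for bHLH163. Zm00001d043509, with 9 other TFs, had 1.30e-07 for bHLH162 and 7.15e-08 for bHLH172, while bHLH43 (0.0187) and bHLH163 (0.0221) placed it past 60% of their lists, at 61.5 and 64.8%. Zm00001d013052 showed the same contrast, with 8.55e-06 for bHLH162 and 2.06e-08 for bHLH172, against 0.0185 for bHLH43 and 0.0334 for bHLH163. In these genes the product of p says little about bHLH43 and bHLH163.

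At Zm00001d006028 bHLH172 had the lowest p, 2.16e-09, against 1.66e-04 for bHLH162, 0.0133 for bHLH43 and 0.0143 for bHLH163. At Zm00001d042736 the p was 1.23e-08 for bHLH172, 2.02e-04 for bHLH162, 0.00152 for bHLH43 and 0.00168 for bHLH163. bHLH43 gave its lowest p among the members, 6.96e-06, at Zm00001d021962, where bHLH172 had 2.84e-06, bHLH162 0.00195 and bHLH163 0.00275. The other 3 of the first 10 were Zm00001d022459, Zm00001d022225 and Zm00001d029886, with bHLH172 p-values of 7.98e-07, 2.13e-07 and 6.40e-06. All 10 had 9 to 20 other TFs, and none of them was among the 10 members with the fewest.

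**Figure D2:**
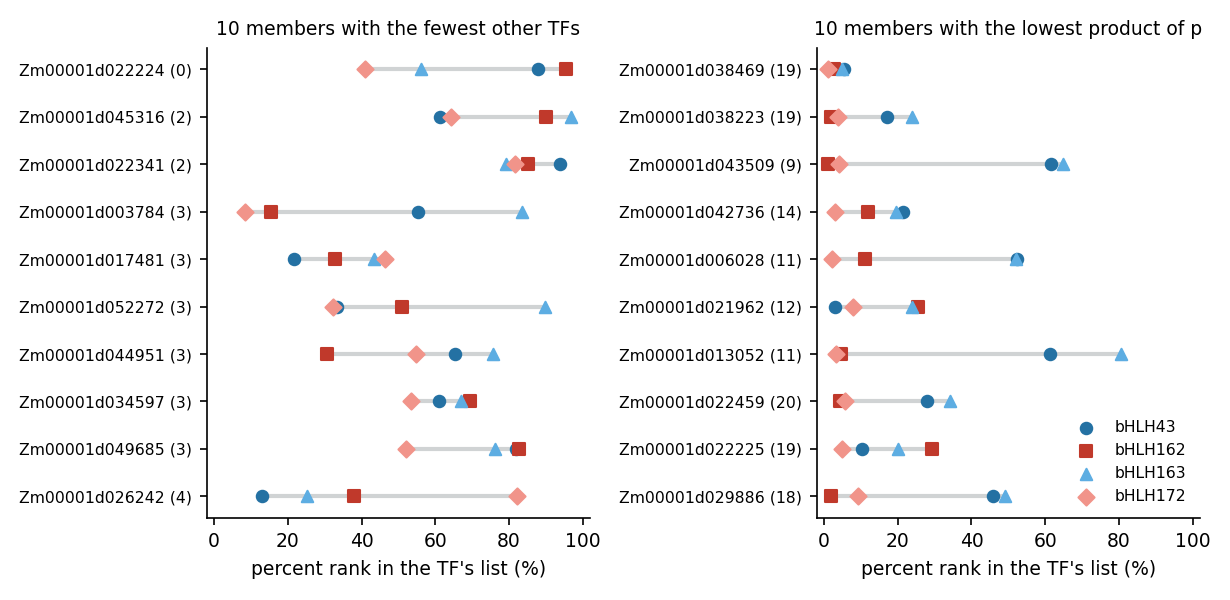
Percent rank (x axis, 0 is the lowest p of a TF) in the lists of the 4 TFs for the 10 members with the fewest other TFs (left) and the 10 with the lowest product of p (right), with the number of other TFs in brackets and a grey line over the range of the 4. On the left few points lie under 20%, and on the right bHLH162 and bHLH172 lie under 30% in every gene, while bHLH43 and bHLH163 reach 61.5% and 80.6%.

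The members with the fewest other TFs were of another kind. Zm00001d022224 was the only gene of the 1276 that no other TF listed, and its p was 0.0387 for bHLH43, 0.0458 for bHLH162, 0.0168 for bHLH163 and 0.00319 for bHLH172. It lay at 87.8, 95.5, 56.2 and 40.9% of the lists of these TFs, so its place rests on listings near the limit. Zm00001d045316 (KNOX6 and bHLH136 as the other TFs) had p-values of 0.0186, 0.0409, 0.0477 and 0.0144 in the same order of TFs. Zm00001d022341 (COL8 and MYB6) had 0.0439, 0.0354, 0.0325 and 0.0292, all past 79% of the lists.

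Of the 6 members with 3 other TFs, Zm00001d003784 stood out by its p of 3.34e-06 for bHLH172 and 4.04e-04 for bHLH162, whereas bHLH43 (0.0150) and bHLH163 (0.0360) gave higher ones. Its other TFs were WRKY95, bHLH118 and bHLH136, with p-values of 0.0285 to 0.0489. Zm00001d017481, listed also by COL18, GLK53 and bHLH118, had 0.00154, 0.00358, 0.00975 and 0.00529 for bHLH43, bHLH162, bHLH163 and bHLH172, an even set of values. Zm00001d052272, Zm00001d044951, Zm00001d034597 and Zm00001d049685 had no p of 0.001 or less for any of the 4. The 10th, Zm00001d026242, had 4 other TFs and the reverse lean, with 3.98e-04 for bHLH43 and 0.00296 for bHLH163 against 0.00514 for bHLH162 and 0.0298 for bHLH172. MYB38 (2.01e-04) and bHLH129 (5.02e-04) were also low there.

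Inside the list, members with more other TFs more often had a low p. A p of 0.001 or less for at least 1 of the 4 was seen at 5 of 18 members (27.8%) with 0 to 5 other TFs, at 14 of 28 with 6 to 10, at 27 of 47 (57.4%) with 11 to 15 and at 36 of 57 (63.2%) with 16 to 20. The median percent rank over these groups was 61.2, 73.3, 61.2 and 45.8 for bHLH43. For bHLH162 it was 41.7, 45.9, 40.3 and 31.8, for bHLH163 it was 75.9, 50.4, 52.1 and 45.8, and for bHLH172 it was 52.8, 44.3, 35.9 and 36.1. For each of the 4 it was lower in the last group than in the first, with no steady order in between. The last group is not free of the rule. It holds the 5 genes kept by their low product of p, out of 13 with 20 other TFs. Each of the 5 had a p of 0.001 or less for at least 1 of the 4.

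The members leaned to 1 pair of the 4 TFs. The mean percent rank of bHLH162 and bHLH172 minus that of bHLH43 and bHLH163 had a median of -12.7 points over the members and of 0.558 over the other genes listed by all 4. It was below 0 at 104 members (69.3%) and at 48.7% of the other genes. A lean of more than 25 points to bHLH162 and bHLH172 was found at 55 members (36.7%, against 12.7% of the other genes). One of the same size to bHLH43 and bHLH163 was found at 15 members (10%, against 14.1%). Within the 4, the lowest percent rank belonged to bHLH172 at 54 members, to bHLH162 at 44, to bHLH163 at 28 and to bHLH43 at 24, while at the other genes bHLH43 led with 316 of 1126.

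**Figure D3:**
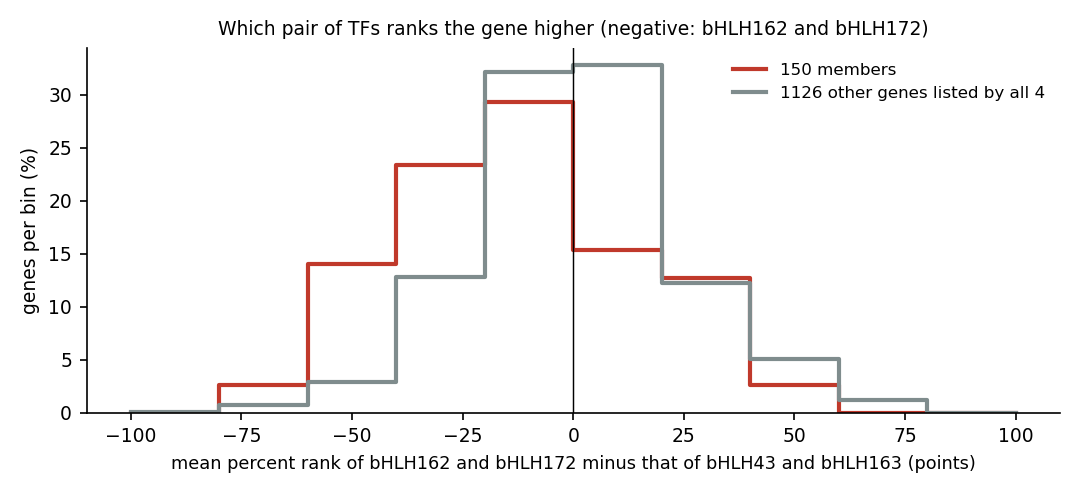
Share of genes (y axis, %) in bins of 20 points of the mean percent rank of bHLH162 and bHLH172 minus that of bHLH43 and bHLH163 (x axis), for the members (red) and the other genes listed by all 4 (grey). The members have their median at -12.7 and the other genes at 0.558.

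Single members show both ends. Zm00001d002512 had the strongest lean to bHLH162 (p of 0.00135) and bHLH172 (2.05e-04), with 0.0380 for bHLH43 and 0.0430 for bHLH163. At the opposite end Zm00001d007072 had 4.31e-04 for bHLH43 and 4.05e-04 for bHLH163, with 0.0114 for bHLH162 and 0.0313 for bHLH172. These 2 genes were picked after their values were seen, as the ends of this scale.

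The rank of a member in 1 list said most about its rank in the list of the TF's partner. Whether the partners bHLH162 and bHLH172 are near-identical copies was not tested. Over the 150 members Spearman's rho of the p-values was 0.477 for bHLH162 with bHLH172 and 0.343 for bHLH43 with bHLH163. It was 0.215 for bHLH43 with bHLH172, 0.201 for bHLH43 with bHLH162, 0.191 for bHLH162 with bHLH163 and 0.0729 for bHLH163 with bHLH172. Over the other 1126 genes the values for the same pairs were higher, at 0.569, 0.536, 0.430, 0.449, 0.422 and 0.310. The points are genes listed by both TFs, each from pooled libraries of the same kind of protoplasts, and genes with neighbouring start sites can share binding. The target lists as a whole paired the same TFs, with a Jaccard index (shared targets over targets of either TF) of 0.539 for bHLH43 with bHLH163, 0.515 for bHLH162 with bHLH172 and 0.388 for bHLH163 with bHLH172.

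**Figure D4:**
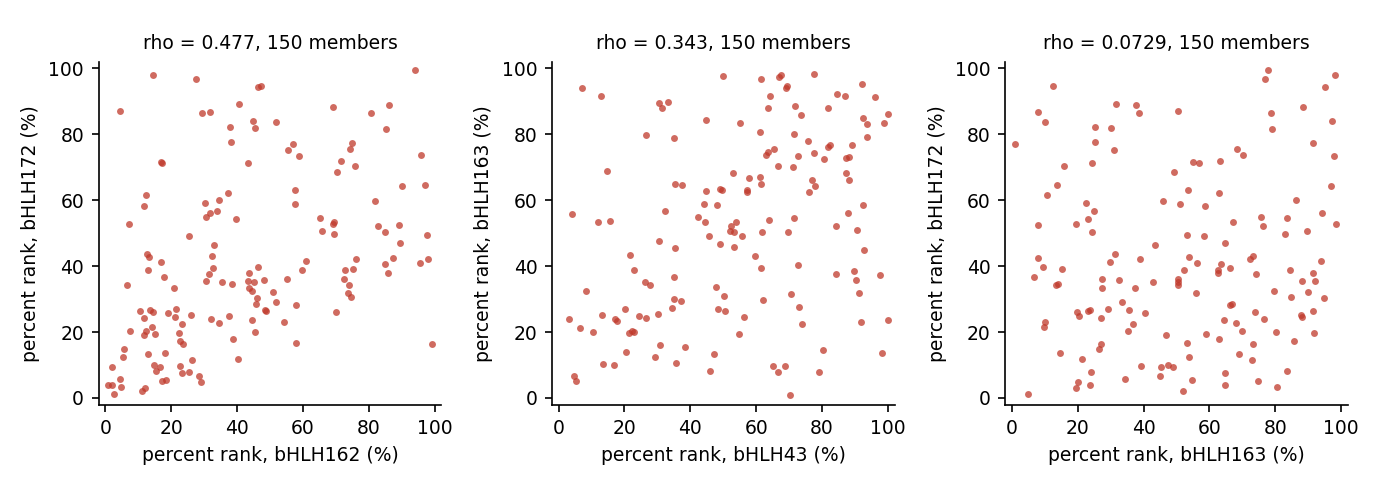
Percent rank of the 150 members in the list of 1 TF (y axis, %) against that of another (x axis, %), for bHLH162 and bHLH172, bHLH43 and bHLH163, and bHLH163 and bHLH172. Points gather at low ranks of both TFs in the first panel (rho of 0.477) and show little order in the third (0.0729).

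In 5 members the 4 TFs differed most. Zm00001d051759 ran from a percent rank of 7.24 for bHLH43 (p of 8.96e-05) to 94.0 for bHLH163 (0.0449). Zm00001d039510 had its highest p for bHLH43 (0.0499, a percent rank of 99.9) and its lowest for bHLH162 (2.85e-04). Zm00001d003751, with 7 other TFs, had 1.46e-06 for bHLH172 and 0.0428 for bHLH43. Zm00001d004197 was low only for bHLH163 (8.07e-04) and Zm00001d040398 only for bHLH162 (3.51e-04). In all 5, at least 1 of the 4 listings lay past 90% of its list, and a stricter limit would drop the gene.

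The choice of 4 TFs also shaped the list. A number of other TFs of at most 20 was found for 158 of the 1276 genes listed by all 4 (12.4%), for 264 of 948 listed by 3 (27.8%), for 541 of 1198 listed by 2 (45.2%), for 1249 of 1893 listed by 1 (66.0%) and for 13698 of 14656 listed by none (93.5%). Of genes that only bHLH163 missed, 84 of 265 (31.7%) had that few other TFs, and of those that only bHLH43 missed, 76 of 169 (45.0%). The same held for 58 of 319 (18.2%) without bHLH172 and 46 of 195 (23.6%) without bHLH162. Among genes listed by just 2 of the 4, 217 of 325 for bHLH162 with bHLH172 (66.8%) had at most 20 other TFs, against 121 of 385 for bHLH43 with bHLH163 (31.4%).

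Most of the members were also targets of other bHLH TFs. The 7 other profiled bHLH TFs together listed 139 members (92.7%), against 99.8% of the other genes listed by all 4 and 37.6% of all target genes. A member had a median of 2 of them and at most 6, and the other genes had a median of 4. bHLH129 listed 101 members (67.3%), against 72.1% of the other genes listed by all 4 and 14.6% of all target genes. bHLH118 listed 87 members (58.0%, against 93.0% and 15.7%) and bHLH136 listed 82 (54.7%, against 82.3% and 14.7%). The rule works against every other TF, and the share of bHLH129, taken as a ratio to its share of the other genes, was the highest of the 100 (0.934).

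The shares of the other 4 were closer to those of all target genes than to those of the other genes listed by all 4. bHLH47 listed 36 members (24.0%, against 84.4% of the other genes and 15.3% of all targets), bHLH145 listed 28 (18.7%, against 50.5% and 12.0%), bHLH108 listed 22 (14.7%, against 51.5% and 13.0%) and bHLH91 listed 0. bHLH91 had 21 targets in all, 0.105% of the target genes.

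**Figure D5:**
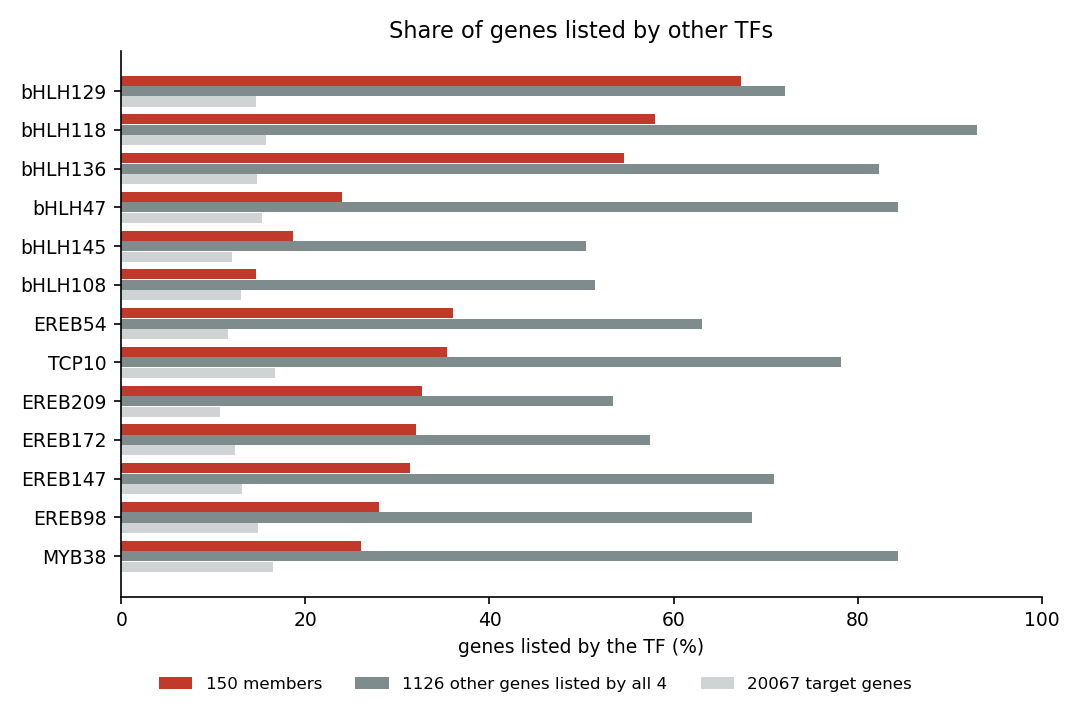
Share of genes listed (x axis, %) by the 6 other bHLH TFs with members and by the 7 leading other TFs, for the 150 members (red), the 1126 other genes listed by all 4 (dark grey) and the 20067 target genes (light grey). bHLH129 lists 67.3% of the members, and each TF shown lies between its share of all target genes and its share of the other genes.

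All 3 of bHLH129, bHLH118 and bHLH136 listed 39 members (26.0%), 2 of them 58, 1 of them 37 and none 16 (10.7%). Of the other genes 58.3% were listed by all 3 and 0.977% by none, and of all target genes 5.16% by all 3 and 72.7% by none. bHLH129 alone of the 3 was at 17 members (11.3%, against 1.07% of the other genes and 5.47% of all targets). Without any other bHLH TF were 11 members, among them Zm00001d022224, Zm00001d022341, Zm00001d034597 and Zm00001d049685, and 10 of the 11 had other TFs from outside the family. No member had bHLH TFs as its only other TFs.

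The p-values of these TFs were mixed. bHLH136 had a p of 0.001 or less at 22 members (14.7%, against 31.7% of the other genes and 3.02% of all targets), with the lowest, 1.98e-09, at Zm00001d038469. bHLH129 had 14 such members (9.33%, against 16.3% and 1.60%) and its lowest p, 2.38e-07, at Zm00001d022459, a percent rank of 0.477. At Zm00001d043509 both were low, with 3.04e-07 for bHLH129 and 2.04e-07 for bHLH136. bHLH118 had 4 (2.67%, against 40.4% and 3.03%), close to its share of all targets, and its median percent rank was 54.4 at its members against 22.8 at the other genes.

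When all 104 TFs were ranked at each member, the lowest percent rank belonged to 1 of the 4 at 43 members (28.7%) and to a TF outside the 4 at 107 (71.3%). Among the other genes listed by all 4, the 4 led at 7.99%. By the rule the members have fewer other TFs, so the 4 compete with fewer TFs there. This contrast and those by family in the next sentences are thus not independent of the rule. bHLH129 led at 19 members, more than bHLH172 (17), bHLH162 (13), bHLH163 (7) or bHLH43 (6), and bHLH136 led at 9. In all, another bHLH TF led at 33 members (22.0%, against 10.9%) and an EREB TF at 30 (20%, against 18.3%). A TF of some other family led at 44 (29.3%, against 62.8%). The word preferential in the name of the list therefore refers to the rule, and not to the 4 as the leading TFs of each gene.

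Outside the bHLH family, EREB TFs, which belong to the AP2/ERF family of ethylene and stress response regulators, were the most frequent. EREB54 listed 54 members (36.0%, against 63.1% of the other genes and 11.6% of all targets), EREB209 listed 49 (32.7%, against 53.5% and 10.8%) and EREB172 listed 48 (32.0%, against 57.5% and 12.3%). EREB147 listed 47 (31.3%, against 70.9% and 13.1%) and EREB98 listed 42 (28%, against 68.5% and 14.8%). TCP10, of a family known for control of leaf growth, listed 53 (35.3%, against 78.2% and 16.7%), and MYB38 listed 39 (26.0%, against 84.4% and 16.5%). Relative to all target genes the share of members was highest for bHLH129 (a ratio of 4.60), then bHLH136 (3.71), bHLH118 (3.69), EREB54 (3.11) and EREB209 (3.04).

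By family, the 1946 listings of members by other TFs held 18.3% from bHLH TFs, against 7.68% for the other genes and 6.59% over the table. The bHLH share was 13.3% when only pairs with a p of 0.01 or less counted, with 150 members chosen anew. At 0.001 or less it was 7.90%, but there only 142 genes were listed by all 4 and all were kept. That value is thus not of a list chosen for few other TFs. The share over the table at these limits is not given here. Of the 1946 listings, EREB TFs gave 24.4% (against 15.0% and 14.8%). MYBR TFs gave 3.29% (against 7.66% and 7.61%), HB TFs 3.60% (against 6.85% and 6.84%) and ZIM proteins, repressors of jasmonate signalling, 2.00% (against 6.73% and 6.28%). The share of bHLH TFs was 32.8% of the 64 listings at members with 0 to 5 other TFs and 16.8% of the 1029 at members with 16 to 20. In all, 37 of the 100 other TFs listed a larger share of members than of all target genes and 63 a smaller one.

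Some TFs listed far fewer members than their share of all targets. LHY1, a clock regulator, listed 3 members (2.00%, against 59.7% of the other genes and 12.6% of all targets). ELF3, another part of the clock, listed 5 (3.33%, against 66.2% and 14.8%). LHY1 and ELF3 were not the lowest. ZIM28 and C3H40 were among the TFs that listed 1 member each (0.667%), against 12.8% and 11.5% of all targets. No member was listed by 2 of the other TFs. The rule favours genes with few other TFs, and 63 of the 100 other TFs listed a smaller share of members than of all targets. These TFs were named after their counts were seen.

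Several members had neighbouring identifiers, and in this annotation numbers run in order along a chromosome. There were 13 pairs of members with consecutive numbers, made of 24 members. Among all genes listed by all 4, a gene with the next or previous number was found for 43 members (28.7%) and for 34.3% of the other genes, and among all target genes for 133 members (88.7%), against 78.1% of the target genes. The order of the shares thus depended on the genes counted. The other TFs were shared to different degrees, with a Jaccard index from 0 to 0.786 and a median of 0.24.

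The closest pair was Zm00001d021961 and Zm00001d021962, with 11 of 14 other TFs in common and low p-values for bHLH43 (6.05e-05 and 6.96e-06) and bHLH172 (1.81e-05 and 2.84e-06) at both. Zm00001d036698, Zm00001d036699 and Zm00001d036700 formed a run, with 11 of 19 and 8 of 14 other TFs in common, and both pairs shared EREB54, EREB209, bHLH129 and bHLH136. Zm00001d022459, Zm00001d022460 and Zm00001d022461 formed another, and the first had 20 other TFs, the second 6 and the third 19. The pair at the head of the list had nothing in common, since Zm00001d022224 had no other TF and Zm00001d022225 had 19, with bHLH172 at 0.00319 and 2.13e-07. Whether the genes of a pair share binding sites was not tested, because positions were not analysed here.

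The same rule on EREB17, EREB18, EREB34 and EREB71 gave a second list of 150. For the bHLH and the EREB list, the genes listed by all 4 numbered 1276 (6.39%) and 653 (3.27%), the median number of other TFs at the 150 members was 14 and 23.5, and the highest was 20 and 37. Each list keeps 150 genes, so the EREB list takes a larger part of its smaller pool. The contrasts in number of other TFs are thus not independent of the cut. Over all genes listed by all 4, the median number of other TFs was 52 and 60. Members with a p of 0.001 or less for all 4 TFs numbered 1 and 9. No such share is given here for the genes outside the EREB list, so these counts describe members only. The share of listings from other TFs of the same family was 18.3% in the bHLH list (6.59% over the table) and 13.5% in the EREB list (10.2% over the table).

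No member was a hub gene, which the rule fixes, since hub genes are those with the most TFs in the network. No member was among the 8 C4 photosynthesis genes, a list too short for a count of 0 to be a result. Of the 8 C4 genes, CA1 (carbonic anhydrase) and PPDK (pyruvate orthophosphate dikinase) were listed by all 4 bHLH TFs but by more other TFs than any member, and CA2 was listed by 1. Of the 206 hub genes, 189 were listed by all 4, against 1299 of the 20067 target genes with TF genes kept. Hub genes have the most TFs by definition, so this share follows in part from how they were chosen. The reference annotation matched 0 members by identifier, so functions, promoters and proteins of the members were not analysed here.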

How the data were processed

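Per the labels and the study's methods, reads were aligned to B73 RefGen_v4 with Bowtie2 2.2.5, handled with SAMtools 1.3, and peaks were called against input with SPP and kept at an IDR of 1%. The authors deposited 1 p-value of TIP per TF and gene, with the replicates of a TF pooled and no TIP version stated. By the study's methods, targets were kept at an FDR of 5%. Listed p-values reach 0.0499999. Whether they are raw or already adjusted for the number of genes is not known. How the limit of 0.05 on p relates to the stated FDR was not tested. All 104 TFs were matched by gene identifier to their libraries. The rule, ranks, shares and correlations were computed with Python 3.11.15, pandas 2.3.3, numpy 2.4.6 and scipy 1.17.1, and the rule was tested on simulated data. Members and lists were chosen with earlier results of these data known, so no test was made. Genes named are the 10 lowest by product of p, the 10 first by the rule, the 3 on each side of its end, the 5 with the largest spread of percent rank and consecutive identifiers, and 2 more where the text says so. TFs named are the 4, the other bHLH TFs, the 10 with most members and the 5 with the highest ratio to all targets. LHY1, ELF3, ZIM28 and C3H40 were chosen after their counts were seen. Lists by gene symbol could not be applied, because 0 members matched the NAM-5.0 table. Alternatives changed the p limit, the list size, the tie rule, the TFs counted and the TFs required.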

Additional observations from a re-analysis of the deposited data

How the results depend on the processing

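The list depended most on the limit on p. With only pairs at a p of 0.01 or less, 482 genes were listed by all 4 and 20 of the 150 members remained, with a bHLH share of the other listings of 13.3%. At 0.001 or less, 142 genes were listed by all 4, so all were kept and none was chosen for few other TFs. Of the 150 members 1 remained, the median number of other TFs was 49 and the bHLH share was 7.90%. Keeping 200 genes gave a bHLH share of 16.3%, against 18.3% as reported. The exact binomial 95% interval of the reported share, 16.6 to 20.1%, covers counting only. It treats the listings as independent, although each gene and each TF gives many of them. It served only as a bound for the settings and does not measure a spread. When bHLH43 was not required 91 members remained, and 88 when bHLH163 was not required, against 115 without bHLH162 and 110 without bHLH172. Ties by the largest of the 4 p kept 148 members, and leaving the other bHLH TFs out of the count kept 145. The median number of other TFs was 10 to 20 under all these settings but the limit of 0.001. The setting for a p of 0 could change nothing, since the 4 TFs have none. Of the 172 values under the other settings, 128 stayed within the bounds set for them and 44 moved. The bounds were a fixed factor for counts, ranks and correlations, and the interval above for the bHLH share. Some values could not move, such as the number of genes listed by all 4 when only the list size or tie rule changed. Only the correlations could change sign, and none of them did. Pearson's r of -log10 p over the members kept the order of the 2 closest pairs, at 0.593 for bHLH162 with bHLH172 and 0.315 for bHLH43 with bHLH163. The motif searches in promoters were not run, since no promoter sequence was at hand. No paired analysis was possible because the table pools the replicates, and for the same reason no replicate could be left out.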
